A study of Mus musculus with 9 samples.

Results

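Kupffer cells, the macrophages that live in the liver, were followed through 10 marker genes in RNA of whole livers: Clec4f, Vsig4, Timd4, Marco, Cd5l, Adgre1, Cd163, Csf1r, Mrc1 and Cd68. The genes were matched by name to the GENCODE M21 annotation, from a list of names chosen with earlier results of these data known, and they are 10 of the 54532 gene IDs in the count table. All 10 passed the filter on low counts and entered the tests of 14763 genes. None of the 90 member counts was 0, and the smallest was 162, for Cd163 in HFD + IgG1 replicate 7 (95% exact Poisson interval 138 to 189, counting error only).

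Livers of 9 mice were sequenced, 3 in each group, and every mouse, those on normal diet included, was a male of the C57BL/6 background lacking ApoE (ApoE-/-) per the labels. The HFD + IgG1 group ate a high-fat diet (HFD) with 41% of calories from fat from 4 weeks of age for 20 weeks, then chow for 1 week. It then received 3 mg of recombinant human IgG1, an antibody whose target the labels do not name, at 25, 26 and 27 weeks of age and was killed at 29 weeks. The HFD + PBS group had the same diet and schedule with PBS, the saline vehicle, and the normal diet group had no high-fat diet. Injections and age at death of the normal diet mice are not stated, so in comparisons with them diet cannot be told apart from age or injection. Livers were chosen for sequencing by their fat staining and triglyceride values.

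Libraries held 16215194 to 18538463 counts, and 3 of the 9 went against their labels. HFD + IgG1 replicate 5 had 235888 counts of Apoe, the gene said to be lacking, against 225 to 1655 in the others. HFD + PBS replicate 6 and normal diet replicate 5 had 0 counts of 4 Y-linked genes and 10970 and 17065 counts of Xist, whereas the others had 2837 to 3385 and at most 4. The libraries just named (HFD + IgG1 replicate 5, HFD + PBS replicate 6, normal diet replicate 5) are called the 3 discrepant libraries. The members' median log2 fold change is given with and without them in each comparison. For the lists of other genes this is done only in part. Separately, the treatment label reads IgG1 for replicate 5 of the antibody group, but IgG2 for replicate 6 and IgG3 for replicate 7, and those last libraries are not among the discrepant ones.

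As background, Kupffer cells line the sinusoids, the fine blood channels of the liver, and clear microbes, dying cells and worn-out red cells from portal blood. They descend largely from embryonic precursors and renew themselves in place, while monocytes from the blood can replace lost ones and take on their profile step by step. The transcription factor PU.1 opens macrophage enhancers, MAF-family factors act in resident macrophages, and liver X receptor alpha is needed for the mature Kupffer cell profile. In whole-liver RNA, fewer Kupffer cells and less RNA per cell cannot be told apart.

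Promoters of the members were read to show what their start regions have in common. The RefSeq table for GRCm38.p6 held 8 of the 10 members, and the 250 bases before each start site were searched on both strands. The letters GAGGAA, the core bound by PU.1, occurred in 5 of 8 member promoters (Vsig4, Marco, Cd5l, Mrc1 and Cd68), against 23.3% of all 32851 promoters in the table. TGCTGA, part of the element bound by MAF factors, occurred in 3 of 8 (Clec4f, Timd4 and Cd5l), against 16.1% of all. The DR4 element, a direct repeat bound by liver X receptors, was in 0 of 8, against 0.0152% of all. Below are the promoters of the 4 members with the most RNA per length, 5′ to 3′ on the strand of the gene, with matches to the first 2 motifs on either strand in capitals. In them no match of one motif overlapped a match of the other.
Cd5l, chr3:87357631-87357880, plus strand: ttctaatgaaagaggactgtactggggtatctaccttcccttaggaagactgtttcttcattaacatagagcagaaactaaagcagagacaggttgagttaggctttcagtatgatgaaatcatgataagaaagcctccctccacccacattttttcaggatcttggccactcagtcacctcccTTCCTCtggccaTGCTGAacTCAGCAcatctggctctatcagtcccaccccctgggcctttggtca
Clec4f, chr6:83656117-83656366, minus strand: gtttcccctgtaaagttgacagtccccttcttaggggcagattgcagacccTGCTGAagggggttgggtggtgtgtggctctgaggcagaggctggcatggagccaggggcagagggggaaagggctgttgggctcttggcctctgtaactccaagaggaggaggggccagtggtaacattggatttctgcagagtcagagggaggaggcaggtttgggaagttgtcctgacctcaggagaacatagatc
Vsig4, chrX:96293439-96293688, minus strand: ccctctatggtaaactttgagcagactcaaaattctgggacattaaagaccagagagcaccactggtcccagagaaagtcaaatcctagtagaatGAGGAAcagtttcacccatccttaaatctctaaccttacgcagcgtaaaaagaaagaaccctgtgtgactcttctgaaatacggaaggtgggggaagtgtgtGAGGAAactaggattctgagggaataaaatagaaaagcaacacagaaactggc
Marco, chr1:120505025-120505274, minus strand: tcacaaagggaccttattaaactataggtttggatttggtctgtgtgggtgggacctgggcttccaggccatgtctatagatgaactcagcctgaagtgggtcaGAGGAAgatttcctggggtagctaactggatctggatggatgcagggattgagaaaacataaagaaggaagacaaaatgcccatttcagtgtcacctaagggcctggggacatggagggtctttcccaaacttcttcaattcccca
The Vsig4 window held GAGGAA at 2 places, starting 155 and 53 bases before the start site, and Marco held it at 146. Cd5l held the PU.1 core on the opposite strand at 66 bases and the MAF letters at 54 and 46. Clec4f held the MAF letters once, at 199 bases, and no PU.1 core. Its RefSeq start site lies inside the GENCODE M21 gene, so part of its window lies within that gene. A match is a run of letters and does not show binding.

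Levels were first set in order within each group as CPM, counts scaled to library size, per kilobase of merged exon, the only scale used here to compare genes with each other. Cd5l, which encodes a scavenger-receptor-like protein that macrophages secrete into plasma, was the most abundant, at 276 CPM per kb in HFD + IgG1, 488 in HFD + PBS and 405 in normal diet livers. It made up 41.6% of the summed level of the 10 markers in HFD + IgG1, 39.9% in HFD + PBS and 44.2% in normal diet livers. Clec4f, a galactose-binding C-type lectin restricted to Kupffer cells in mice, followed at 132 CPM per kb in HFD + IgG1, 225 in HFD + PBS and 191 in normal diet livers. Vsig4, Marco, Csf1r and Adgre1 came next, and Timd4 and Cd163 were lowest, with Cd163 at 8.91 in HFD + IgG1, 12.6 in HFD + PBS and 7.86 in normal diet livers. The order of the means was the same in the 3 groups except that Cd68 stood above Mrc1 in HFD + PBS and below it in HFD + IgG1 and normal diet livers.

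**Figure D1:**
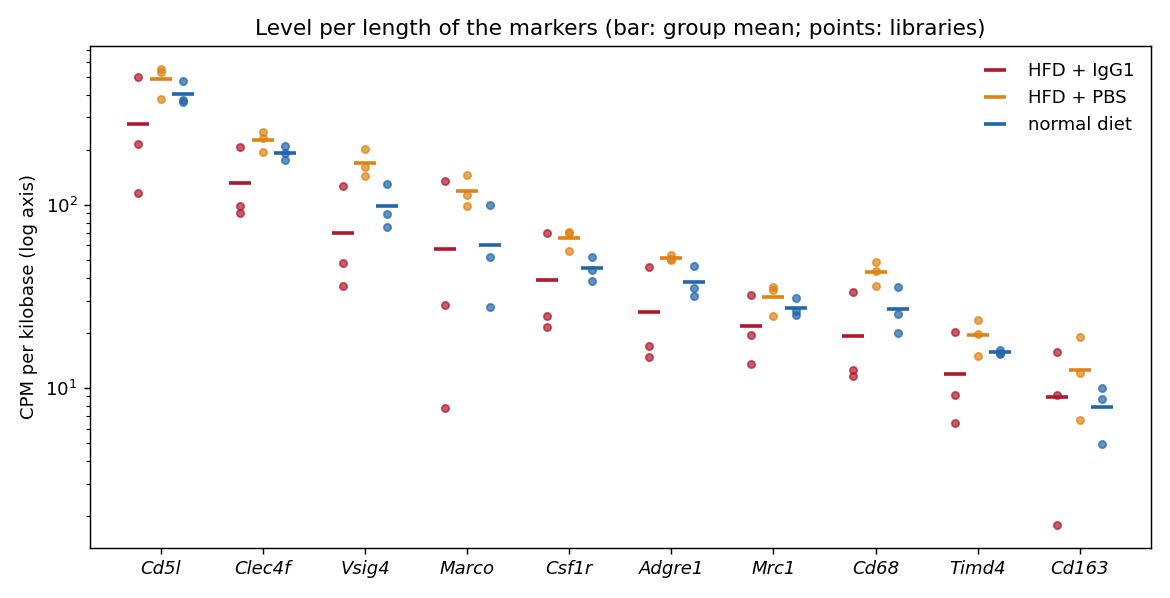
Level of each Kupffer cell marker in CPM per kilobase of merged exon (log axis), 3 libraries per group as points and the group mean as a line. Cd5l lies at the top and Cd163 at the bottom in every group, with HFD + IgG1 points spread most widely.

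How firmly that order held differed by group. In HFD + PBS livers the 3 Cd5l libraries (378 to 553 CPM per kb) all lay above the 3 Clec4f libraries (194 to 249). Marco, Csf1r, Adgre1, Cd68 and Mrc1 were likewise each separated from the next lower member without overlap. The neighbours that overlapped there were Clec4f with Vsig4, Vsig4 with Marco, and Timd4 with Cd163. In normal diet livers Vsig4, Marco, Csf1r and Adgre1 overlapped one after the other, as did Mrc1 and Cd68. In HFD + IgG1 livers every neighbouring pair overlapped. There the libraries of a single gene spanned more than the step to the next gene, as for Cd5l at 116 to 497 CPM per kb against Clec4f at 90.6 to 208.

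The HFD + IgG1 against HFD + PBS comparison addresses whether the antibody given after the diet went with another marker level than the vehicle. Marker RNA was lower in HFD + IgG1 for all 10 genes by the sign of the log2 fold change, against 47.2% of all genes, and the median was -0.79, against 0.04 over all genes. None of the 10 passed edgeR's quasi-likelihood test at an adjusted p of 0.05, and neither did any other gene (0% of 14763). Unadjusted, 4 members had p under 0.05, all lower (Clec4f, Vsig4, Adgre1 and Cd68), against 11.6% of all genes. In 3 members (Vsig4, Adgre1 and Cd68) every HFD + IgG1 library lay below every HFD + PBS library, against 11.2% of all genes. The antibody libraries differed widely among themselves, as the single genes show.

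Among the receptors typical of resident Kupffer cells, Vsig4, which binds complement-coated particles and is encoded at chrX:96247203-96293438, had the largest log2 fold change of the 3 members with separate groups. Vsig4 had 53.7, 189 and 71.1 CPM in HFD + IgG1 replicates 5, 6 and 7, against 214, 239.9 and 299 CPM in HFD + PBS replicates 3, 4 and 6. Replicate 6 of the antibody group came near the vehicle libraries without reaching them, and the other two lay far below (log2 fold change -1.26, SE 0.44, edgeR adjusted p = 0.150). Clec4f (chr6:83644542-83656187) had 224, 514 and 242 CPM in HFD + IgG1 livers, against 572, 481 and 614 CPM in HFD + PBS livers. Here the groups overlapped, since replicate 6 exceeded HFD + PBS replicate 4 (log2 fold change -0.77, SE 0.30, edgeR adjusted p = 0.172). The mean of Clec4f was 327 ± 162 CPM in HFD + IgG1 livers and 556 ± 68.4 CPM in HFD + PBS livers (SD, n = 3 each).

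Timd4, a phosphatidylserine receptor that takes up dying cells and marks embryo-derived Kupffer cells (chr11:46810800-46844332), had 14.0, 44.2 and 19.9 CPM in HFD + IgG1 livers, against 32.5, 42.9 and 51.3 CPM in HFD + PBS livers. Replicate 6 again lay among the vehicle libraries, and the difference did not pass the test (log2 fold change -0.70, SE 0.37, edgeR adjusted p = 0.271). Marco, a scavenger receptor for bacteria and particles (chr1:120474538-120505024), had the widest span of the 10, 18.7-fold between its lowest and highest library. It had 15, 261 and 54.3 CPM in HFD + IgG1 livers, against 217, 189.6 and 280.4 CPM in HFD + PBS livers. The SE of 0.92 around its log2 value of -1.06 was the largest of the 10 (edgeR adjusted p = 0.499). Cd5l (chr3:87357881-87371073) had 236, 1012 and 437 CPM in HFD + IgG1 livers, against 1084, 770.4 and 1126 CPM in HFD + PBS livers, with replicate 6 inside the vehicle range (log2 fold change -0.82, SE 0.45, edgeR adjusted p = 0.281).

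**Figure D2:**
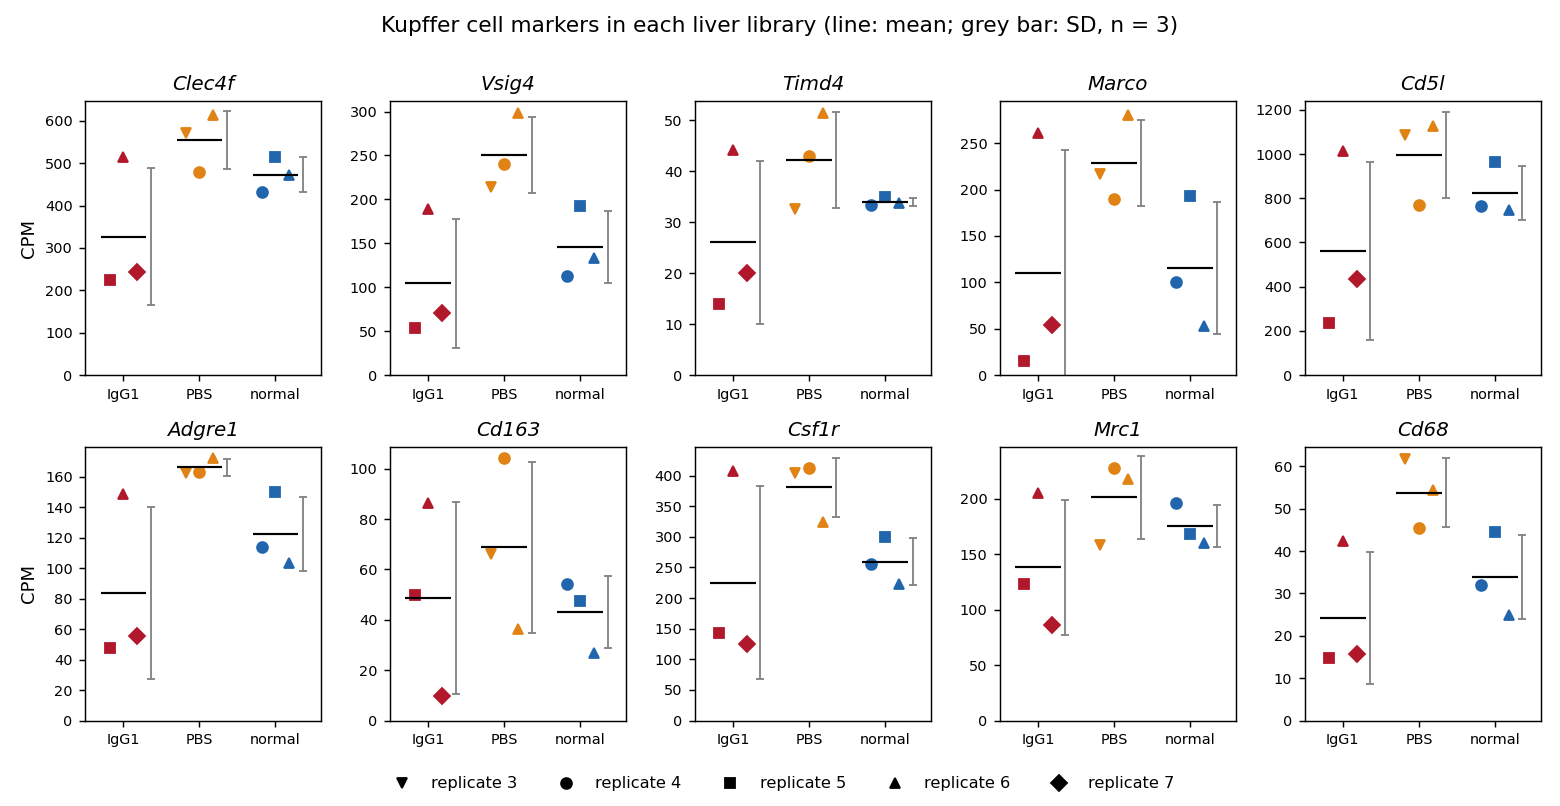
CPM of each of the 10 Kupffer cell markers in every library, 1 panel a gene, with HFD + IgG1 left, HFD + PBS in the middle and normal diet right; lines are means and bars SD (n = 3), cut at 0. In most panels 1 HFD + IgG1 library lies at the HFD + PBS level and the other two lie below, as for Clec4f at 514 against 224 and 242 CPM.

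The pan-macrophage genes had the same shape. Adgre1, the F4/80 antigen (chr17:57358691-57483527), had 47.7, 149 and 55.1 CPM in HFD + IgG1 livers, against 163, 163 and 172 CPM in HFD + PBS livers. Its vehicle libraries were the tightest of any member, with a CV of 3.31%, and no antibody library reached them (log2 fold change -0.99, SE 0.39, edgeR adjusted p = 0.175). Cd68, a lysosomal glycoprotein of phagocytes (chr11:69664213-69666153), had 14.7, 42.3 and 15.7 CPM in HFD + IgG1 livers, against 61.6, 45.3 and 54.5 CPM in HFD + PBS livers. Replicate 6 was just under the lowest vehicle library (log2 fold change -1.15, SE 0.40, edgeR adjusted p = 0.151).

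Csf1r, on chromosome 18, is the receptor for CSF1 and IL-34, on which macrophage survival depends. It had 143, 407 and 125 CPM in HFD + IgG1 livers, against 404, 413 and 325 CPM in HFD + PBS livers. Replicate 6 lay between 2 vehicle libraries (log2 fold change -0.76, SE 0.40, edgeR adjusted p = 0.274). Csf1r is the only member whose exons overlap another gene, by 873 bases of Hmgxb3 on the opposite strand, and whether the counting used strand is not stated in the sources used here. All Hmgxb3 counts together came to 12.6%, 3.99% and 13.4% of the Csf1r counts in HFD + IgG1 replicates 5, 6 and 7 and to 3.26% to 7.43% in the other 6 libraries.

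The remaining 2 members are endocytic receptors whose RNA is less specific to Kupffer cells. Mrc1, the mannose receptor, which liver sinusoidal endothelial cells also make (chr2:14229392-14332057), had 123, 205 and 86.2 CPM in HFD + IgG1 livers, against 158, 227 and 218 CPM in HFD + PBS livers. Its groups overlapped and its span of 2.64-fold over the 9 libraries was the narrowest (log2 fold change -0.54, SE 0.29, edgeR adjusted p = 0.272). Cd163, which takes up haemoglobin bound to haptoglobin (chr6:124304656-124330527), had 49.9, 86.3 and 9.78 CPM in HFD + IgG1 livers, against 66.0, 104 and 36.4 CPM in HFD + PBS livers. Cd163 departed from the other members: replicate 5, the lowest library for 7 of them, lay within the vehicle range, and replicate 7 was lowest (log2 fold change -0.50, SE 0.70, edgeR adjusted p = 0.682).

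Per library, the median member stood at 30.9% of its HFD + PBS mean in HFD + IgG1 replicate 5, 102% in replicate 6 and 33.0% in replicate 7. In replicate 5, 9 of 10 members, all but Cd163, lay below all 6 libraries of HFD + PBS and normal diet, against 19.6% of all genes. In replicate 7, 9 of 10, all but Marco, did so, against 20.6% of all genes. In replicate 6, 0 of 10 did so, against 5.89% of all genes, and 7 of 10 were inside the HFD + PBS range. The members' CV had a median of 68.6% in HFD + IgG1, 18% in HFD + PBS and 17.3% in normal diet livers. Replicate 5 is the library with 235888 Apoe counts and the IgG1 label, replicate 6 carries the label IgG2 and replicate 7 the label IgG3. The part of labels or of Apoe in the marker levels was not tested.

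**Figure D3:**
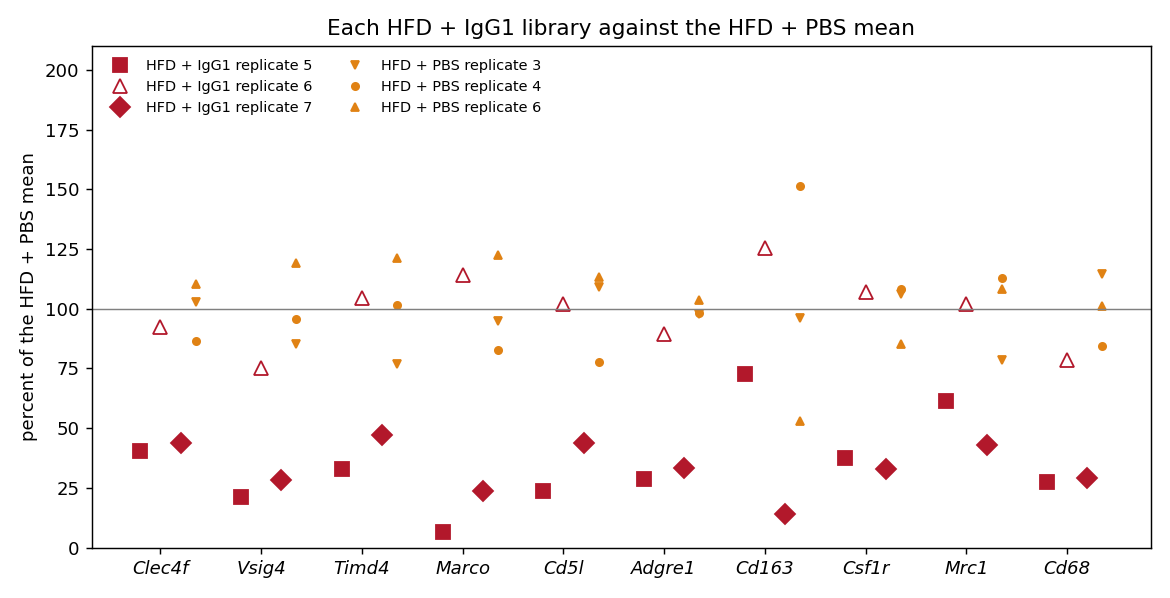
Each marker in the 3 HFD + IgG1 libraries as percent of its mean in HFD + PBS livers, with the 100% line marking that mean. Replicates 5 and 7 lie mostly between 20% and 50% and replicate 6 lies between 75.3% and 125%.

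The calls turned on replicate 6. Without it, edgeR's quasi-likelihood test called 9 of the 10 members lower in HFD + IgG1, all but Cd163, against 8.37% of the 15214 genes then tested, with a median of -1.53 (log2 fold change). The log2 fold changes then ran from -0.94 for Mrc1 (edgeR adjusted p = 0.0263) to -2.72 for Marco (edgeR adjusted p = 0.0455), with Adgre1 at -1.69 (edgeR adjusted p = 0.00299). Those 9 then had no overlap with HFD + PBS, against 24% of all genes. That removes the library at odds with the pattern, so these calls describe the other two libraries. The count of members with an unadjusted p under 0.05 was 4 with all libraries. It was 9 without replicate 6 (16.9% of all genes lower at that p in the same fit), 1 without replicate 5 (5.92% of all genes) and 0 without replicate 7 (5.92% of all genes). It was 2 without HFD + PBS replicate 3 (7% of all genes), 3 without replicate 4 (12.3%) and 1 without replicate 6 (10.1%). Members without overlap numbered 5 without HFD + PBS replicate 4, against 19.3% of all genes. With all libraries, DESeq2 called 2 members lower, Vsig4 (adjusted p = 0.0346) and Cd68 (adjusted p = 0.0446), against 4.75% of all genes. With replicate 5 alone as the antibody group, the median was -1.69 in log2 fold change and 10 of 10 were negative. That library is a discrepant one by its Apoe counts, so antibody and Apoe cannot be told apart in it. Without the 3 discrepant libraries the median was -0.58, 10 of 10 were negative, and none was called.

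The HFD + PBS against normal diet comparison addresses whether markers differed after the fat-rich diet. All 10 members had a positive log2 fold change, against 49.7% of all genes, with a median of 0.50, against -0.00 over all genes. None passed edgeR's test at an adjusted p of 0.05, nor did any other gene (0%), and 0 of 10 had an unadjusted p under 0.05, against 20.8% of all genes. In 4 members (Vsig4, Adgre1, Csf1r and Cd68) every HFD + PBS library lay above every normal diet library, against 13% of all genes. The pan-macrophage genes were thus all among the separated ones, and of the resident receptors Vsig4 alone was.

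Vsig4 had 214, 239.9 and 299 CPM in HFD + PBS livers, against 113, 192 and 133 CPM in normal diet livers, the smallest p of the 10 (log2 fold change 0.78, SE 0.43, edgeR adjusted p = 0.333). Cd68 had 61.6, 45.3 and 54.5 CPM in HFD + PBS livers, against 32.1, 44.5 and 25.0 CPM in normal diet livers, and only normal diet replicate 5 came near the diet libraries (log2 fold change 0.67, SE 0.40, edgeR adjusted p = 0.366). Csf1r had 404, 413 and 325 CPM in HFD + PBS livers, against 256, 299.6 and 223 CPM in normal diet livers. Normal diet replicate 5, a library without Y-linked counts, was the highest of its group for Clec4f, Vsig4, Timd4, Marco, Cd5l, Adgre1, Csf1r and Cd68. Adgre1 had 163, 163 and 172 CPM in HFD + PBS livers, against 114, 149.7 and 104 CPM in normal diet livers, and its difference was small beside its error (log2 fold change 0.44, SE 0.38, edgeR adjusted p = 0.539).

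The other 6 members overlapped between the diets. Clec4f was at 556 ± 68.4 CPM in HFD + PBS livers and 473 ± 41.2 CPM in normal diet livers (SD, n = 3 each), or 0.23 in log2 fold change (SE 0.30). Timd4 had 32.5, 42.9 and 51.3 CPM in HFD + PBS livers, against 33.3, 34.9 and 33.8 CPM in normal diet livers, whose CV of 2.42% was the lowest of the 10 in that group. The spread of Timd4 was thus in the HFD + PBS group (log2 fold change 0.31, SE 0.36). Marco had the largest log2 fold change, 0.99, but also the largest SE, 0.92, with 217, 189.6 and 280.4 CPM in HFD + PBS livers and 99.96, 193 and 53.3 CPM in normal diet livers. Cd163 had the next largest SE, 0.70, around 0.68, with 66.0, 104 and 36.4 CPM in HFD + PBS livers and 54.4, 47.5 and 26.9 CPM in normal diet livers. Cd5l and Mrc1 were close between diets, at log2 fold changes of 0.27 and 0.20, each smaller than its SE of 0.44 and 0.29.

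**Figure D4:**
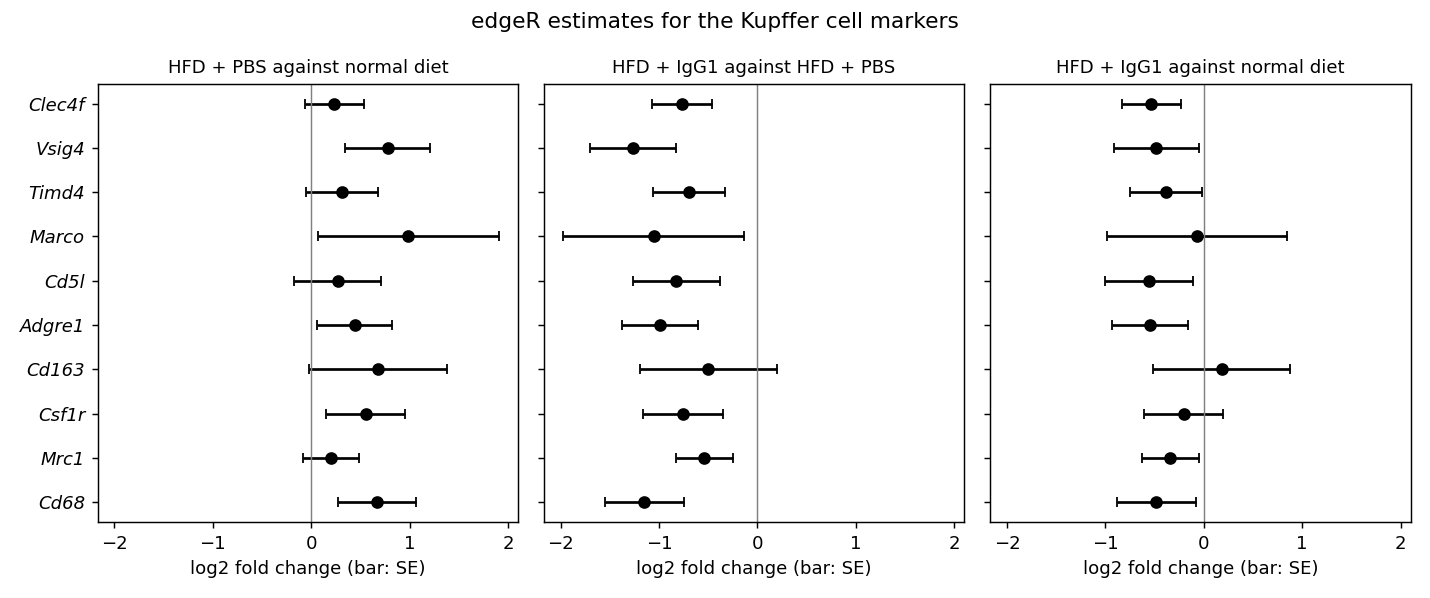
Log2 fold change of each Kupffer cell marker with its SE as a bar, from edgeR over 9 libraries, in the 3 comparisons. HFD + IgG1 against HFD + PBS lies left of 0 for all 10 genes and HFD + PBS against normal diet lies right of 0 for all 10; the HFD + PBS libraries enter both.

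Without the 3 discrepant libraries the median log2 fold change of the members was 0.705, and 8 of 10 members had no overlap, against 25.2% of all genes with these fewer libraries. The members without overlap numbered 7 without normal diet replicate 5, against 20.4% of all genes. They numbered 7 without HFD + PBS replicate 4, against 19.6% of all genes, and 6 without HFD + PBS replicate 3, against 17% of all genes. Without HFD + IgG1 replicate 6, which enters only the shared spread here, 4 members were higher at an unadjusted p under 0.05, against 11.9% of all genes, and none passed at an adjusted p.

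The HFD + IgG1 against normal diet comparison shares libraries with both others. Of the 10 members, 9 had a negative log2 fold change, against 49.6% of all genes, with a median of -0.43. None was called at an adjusted p (0% of genes) or had an unadjusted p under 0.05 (7.04% of all genes) in edgeR, and none was without overlap (6.41% of all genes lower). The log2 fold changes were -0.53 (SE 0.30) for Clec4f, -0.55 (SE 0.38) for Adgre1 and -0.55 (SE 0.44) for Cd5l, the 3 with the smallest p. Cd163 was the 1 member with a positive value, 0.18 (SE 0.70), and limma-voom gave it -0.24. Clec4f had 224, 514 and 242 CPM in HFD + IgG1 livers, against 433, 515 and 472 CPM in normal diet livers. HFD + IgG1 replicate 6 thus stood near the top of the normal diet range for Clec4f, and replicates 5 and 7 below it.

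Single libraries also shifted this comparison. Without HFD + IgG1 replicate 6 the median was -1.09, with 9 members lower at an unadjusted p under 0.05, against 8.28% of all genes, none called at an adjusted p, and 8 without overlap, against 18.5% of all genes. It was -0.18 without replicate 5 and -0.23 without replicate 7. Without the 3 discrepant libraries it was -0.02, with 5 members positive and 5 negative.

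Resident and pan-macrophage markers were also set against each other within libraries. The balance of resident markers over pan-macrophage genes, the mean log2 CPM of Clec4f, Vsig4, Timd4, Marco and Cd5l minus that of Adgre1, Csf1r and Cd68, was 0.29, 0.91 and 1.01 in HFD + IgG1 livers. It was 0.64, 0.70 and 1.11 in HFD + PBS livers and 0.76, 0.87 and 0.88 in normal diet livers. The mean was 0.74 ± 0.39 in HFD + IgG1, 0.81 ± 0.26 in HFD + PBS and 0.84 ± 0.07 in normal diet livers (SD, n = 3 each), and the groups overlapped. No test was made of this balance. HFD + IgG1 replicate 5, where Marco was at 6.54% of its HFD + PBS mean, had the lowest balance.

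Other genes of the Kupffer cell program were taken from lists chosen with earlier results of these data in view. Where HFD + IgG1 replicate 6 is left out for these and the later lists, the library at odds with the members' pattern is removed. Such calls describe replicates 5 and 7 only, and replicate 5 is a discrepant library. List results without replicate 5 or 7 are not given. Of 16 other Kupffer cell genes, 0 were called in edgeR in any comparison with all 9 libraries. In HFD + IgG1 against HFD + PBS 14 were negative, 10 lower at an unadjusted p under 0.05, against 11.6% of all genes, the median being -0.90 in log2 fold change. Without the 3 discrepant libraries 7 were lower at that p, against 642 of 14870 genes (median -0.59). Without HFD + IgG1 replicate 6, edgeR called 13 lower there, against 8.37% of all genes (median -1.39). C1qb, a chain of complement C1q made by macrophages, had 69.3, 226 and 106 CPM in HFD + IgG1 livers, against 337, 358 and 297 CPM in HFD + PBS livers (log2 fold change -1.30, SE 0.36, edgeR adjusted p = 0.14). Clec1b, a C-type lectin that binds podoplanin, had 15.9, 34.1 and 20.0 CPM in HFD + IgG1 livers, against 42.6, 45.5 and 50.9 CPM in HFD + PBS livers. For both, replicate 6 was the highest of the antibody libraries and still below every vehicle library, unlike Clec4f. Against normal diet, 13 of the 16 were positive in HFD + PBS livers, 5 at an unadjusted p under 0.05, compared with 9.41% of all genes, with a median of 0.50. Cd207, the lectin langerin, had the smallest p there, with 8.74, 15.7 and 7.48 CPM in HFD + PBS livers, against 1.89, 4.62 and 0.959 CPM in normal diet livers (log2 fold change 2.08, SE 0.61, edgeR adjusted p = 0.128). Slc40a1, Siglec1 and Kcna2 were negative in that comparison. Slc40a1 had means of 195 CPM in HFD + PBS and 285 CPM in normal diet livers, without overlap (log2 fold change -0.55, SE 0.26, edgeR adjusted p = 0.259).

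Of 11 transcription factors of Kupffer cells, 9 were negative in HFD + IgG1 against HFD + PBS, 7 lower at an unadjusted p under 0.05, against 11.6% of all genes, the median being -0.96 in log2 fold change. Without the 3 discrepant libraries 2 were lower at that p, against 642 of 14870 genes (median -0.58). Without HFD + IgG1 replicate 6, edgeR called 6 lower, against 8.37% of all genes. Spi1, which encodes PU.1, had 8.06, 34.9 and 14.3 CPM in HFD + IgG1 livers, against 81.1, 42.5 and 59.1 CPM in HFD + PBS livers, without overlap (log2 fold change -1.67, SE 0.47, edgeR adjusted p = 0.14). In normal diet livers Spi1 had 23.0, 27.2 and 22.6 CPM, also below every HFD + PBS library (log2 fold change 1.33, SE 0.47, edgeR adjusted p = 0.175). Spi1 is also made by neutrophils and monocytes. Irf8, a factor of the macrophage and dendritic lineages, stood at -1.30 (SE 0.41) in HFD + IgG1 against HFD + PBS. The 2 positive factors in that comparison were Nr1h3, which encodes liver X receptor alpha, and Id3. Nr1h3 had means of 111 CPM in HFD + IgG1 and 95.3 CPM in HFD + PBS livers, without overlap (log2 fold change 0.22, SE 0.14, edgeR adjusted p = 0.353). Id3 stood at 0.33 (SE 0.39), with overlap. Of the 11, 8 were positive in HFD + PBS against normal diet, with a median of 0.29.

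Of 14 genes for signals of the Kupffer cell niche and their receptors, 11 were negative in HFD + IgG1 against HFD + PBS, 4 lower at an unadjusted p under 0.05, against 11.6% of all genes, the median being -0.34 in log2 fold change, and 9 were positive in HFD + PBS against normal diet, with a median of 0.22. Tgfbr2, a TGF-beta receptor, had the smallest p, with 49.7, 59.4 and 37.7 CPM in HFD + IgG1 livers, against 87.4, 81.0 and 60.9 CPM in HFD + PBS livers (log2 fold change -0.64, SE 0.21, edgeR adjusted p = 0.142). In Tgfbr2 the groups were separate by a small margin. Without the 3 discrepant libraries 3 of the 14 were lower at that p, against 642 of 14870 genes (median -0.42). Without HFD + IgG1 replicate 6, edgeR called 5 of the 14 lower in HFD + IgG1 against HFD + PBS, against 8.37% of all genes.

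The uptake genes were grouped by cargo. Of 13 scavenger receptors beyond the members, 11 were negative in HFD + IgG1 against HFD + PBS, with a median of -0.72, and 8 were positive in HFD + PBS against normal diet, with a median of 0.20. Msr1, a class A relative of Marco, had 29.8, 75.4 and 21.6 CPM in HFD + IgG1 livers, against 96.6, 93.8 and 84.1 CPM in HFD + PBS livers (log2 fold change -1.11, SE 0.42, edgeR adjusted p = 0.167). Scarb2, a lysosomal membrane protein, had the opposite sign, with 334, 289 and 310.1 CPM in HFD + IgG1 livers, against 219, 244 and 243 CPM in HFD + PBS livers (log2 fold change 0.40, SE 0.16, edgeR adjusted p = 0.177). Of 13 genes of apoptotic cell clearance, 11 were negative in HFD + IgG1 against HFD + PBS (median -0.75) and 11 positive in HFD + PBS against normal diet (median 0.34). Of 8 complement receptor genes, 8 were negative in HFD + IgG1 against HFD + PBS (median -1.04) and 8 positive in HFD + PBS against normal diet (median 0.55). The complement genes with the smallest p in HFD + IgG1 against HFD + PBS, C5ar1, Itgb2 and Itgam, are also made by neutrophils. In that comparison without the 3 discrepant libraries, medians were -0.41 for scavenger receptors, -0.59 for clearance genes and -1.09 for complement genes. Without HFD + IgG1 replicate 6, edgeR called 4 scavenger receptors, 8 clearance genes and 4 complement genes lower, against 8.37% of all genes.

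Markers of other cells differed between the same libraries. Summed over the 10 Kupffer cell markers, CPM was 922, 2909.7 and 1116 in HFD + IgG1 livers, 2676 to 3177 in HFD + PBS livers and 1977 to 2609 in normal diet livers. For 12 genes of recruited monocytes and macrophages the sums were 133, 533 and 195 CPM in HFD + IgG1 livers, 787 to 1573 in HFD + PBS livers and 204 to 323 in normal diet livers, with at most 1 of the 12 at 0 in any library. Replicate 6 thus had a Kupffer cell sum inside the HFD + PBS range and a recruited-cell sum below it. The genes highest in the recruited-cell sum were Lpl, Chil3 and Spp1, with means of 312, 291 and 159 CPM in HFD + PBS livers. In 6 of the 11 tested, every HFD + IgG1 library lay below every HFD + PBS library, against 11.2% of all genes. The monocyte genes Ly6c2 and Ccr2 overlapped. For 10 neutrophil genes the sums were 13.9, 742 and 21.7 CPM in HFD + IgG1 livers, 485 to 4938 in HFD + PBS livers and 37.1 to 230 in normal diet livers, and Ly6g, which defines neutrophils, was at 0 in replicates 5 and 7. Of the 11 tested recruited-cell genes, 11 were negative in HFD + IgG1 against HFD + PBS (median log2 fold change -1.88) and 11 positive in HFD + PBS against normal diet (median 1.57), each further from 0 than the median of the members. The 10 neutrophil genes had medians of -3.21 and 4.39 in those comparisons. In HFD + IgG1 against HFD + PBS without the 3 discrepant libraries, the medians were -1.65 for recruited-cell genes and -2.81 for neutrophil genes. Without HFD + IgG1 replicate 6, edgeR called 8 of the 11 recruited-cell genes and 7 of the 10 neutrophil genes lower there, against 8.37% of all genes. Those calls describe replicates 5 and 7 of the antibody group only.

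**Figure D5:**
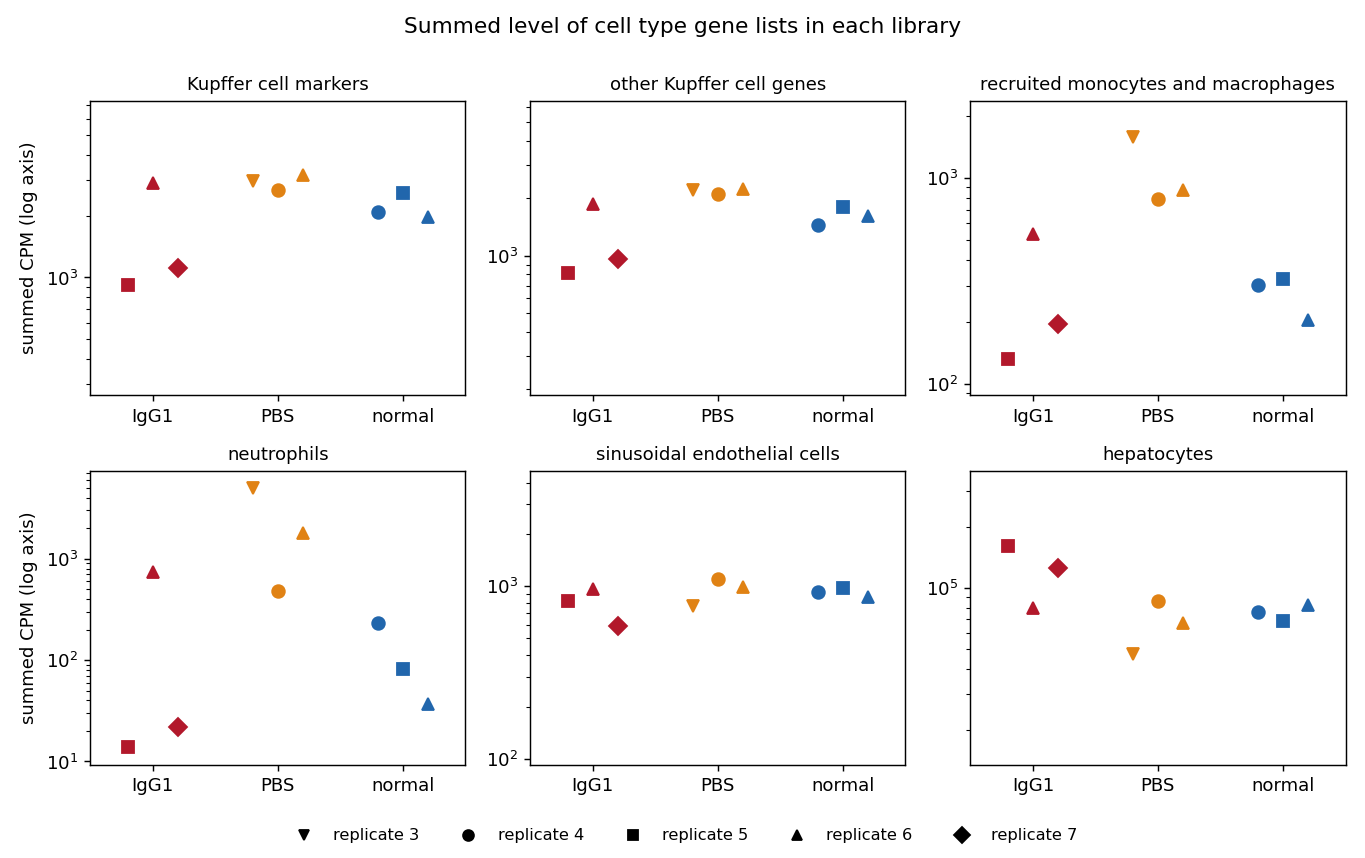
Summed CPM (log axis) of the Kupffer cell markers and of 5 lists of other genes in every library, with HFD + IgG1 left, HFD + PBS in the middle and normal diet right. The neutrophil sums span 13.9 to 4938 CPM, while the sinusoidal endothelial sums stay between 587 and 1110.0 CPM.

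Hepatocyte markers went the other way, with 8 of 9 positive in HFD + IgG1 against HFD + PBS and 3 of 9 higher at an unadjusted p under 0.05, compared with 12.6% of all genes (median 0.44). Without the 3 discrepant libraries 8 were positive and 1 was higher at that p, against 607 of 14870 genes (median 0.26). Without HFD + IgG1 replicate 6, edgeR called 3 higher, against 1083 of 15214 genes. Their sums were 161396, 79633 and 125958 CPM in HFD + IgG1 livers, 47298 to 86219.9 in HFD + PBS livers and 68918 to 82057 in normal diet livers. The 2 libraries low in Kupffer cell markers, HFD + IgG1 replicates 5 and 7, thus held the highest hepatocyte sums. Sinusoidal endothelial sums, over 12 genes, were 827, 963 and 587 CPM in HFD + IgG1 livers, 771 to 1110.0 in HFD + PBS livers and 864 to 980.3 in normal diet livers. Of those 12, 10 were negative in HFD + IgG1 against HFD + PBS (median -0.39), and Lyve1, which some liver macrophages also make, was at 11.2, 14.6 and 7.37 CPM in HFD + IgG1 livers, against 25.3, 56.3 and 21.8 CPM in HFD + PBS livers. Stellate cell sums, over 8 genes, were 557, 838 and 581 CPM in HFD + IgG1 livers, 820 to 972 in HFD + PBS livers and 655 to 878 in normal diet livers. The part of cell composition in the levels of the Kupffer cell markers was not tested.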

How the data were processed

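Whole-number counts per Ensembl gene ID were deposited by the authors for 9 livers, 3 per group, and are not normalised. Per the submitters' processing notes, the genome build mm10 and Bowtie 0.12.2 were used, with no role stated. Libraries were made with a NEBNext Ultra kit, per the labels' protocols. Symbols came from GENCODE M21 (54495 of 54532 IDs named). Counts were tested in R 4.3.3 with edgeR 4.0.16: filterByExpr (minimum count 10, minimum total 15), TMM factors, a model of group means fitted to all 9 libraries and robust glmQLFit; glmQLFTest was two-sided and its p was adjusted by Benjamini-Hochberg over 14763 genes, with a threshold of 0.05. The printed log2 fold change is edgeR's shrunken one, and its SE is the unshrunk value over the square root of F. CPM is scaled by library total times TMM factor. An exact test of 3 against 3 cannot go below p = 0.1 and was not used. The biological coefficient of variation was 0.318. Correlations between libraries were 0.882 to 0.974, and none was a duplicate. Each library is a liver of its own per the labels. The scripts were tested on simulated counts. Alternatives were DESeq2 1.42.0, limma-voom (limma 3.58.1), RLE and upper-quartile factors, other filters, only the libraries compared, a replicate block, only the antibody library labelled IgG1, and each library left out. Leaving out the 3 discrepant libraries was added after seeing the data.

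The members and the 15 other lists were chosen with earlier results of these data known. Of 168 listed symbols, 1 was not matched and 2 genes were not tested. Named genes are all members, up to 3 per other list with the smallest p in each comparison, and the 5 most like Clec4f. Promoter sequences are RefSeq's, from the table for GRCm38.p6. Reads carry no molecular identifiers, so the Poisson interval covers counting error only. Protein sequences were not used here.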

Additional observations from a re-analysis of the deposited data

How the results depend on the processing

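Every member had at least 162 counts in each library. edgeR called 0 genes and 0 members in each comparison. In the order HFD + IgG1 against HFD + PBS, HFD + IgG1 against normal diet and HFD + PBS against normal diet, DESeq2 called 1265, 111 and 1184 genes, with 2 members called in the first comparison and 0 in the others. Without a filter on low counts the numbers of genes were 57, 6 and 274. With only the 6 libraries compared, edgeR called 184 genes in HFD + PBS against normal diet, and without the 3 discrepant libraries 2, where the members' median was 0.705. With only the antibody library labelled IgG1, 556 genes and 8 members were called in HFD + IgG1 against HFD + PBS, and 3 genes against normal diet. Leaving out each library in turn gave 0 to 2356, 0 to 6 and 0 to 576 genes, and 0 to 9, 0 to 0 and 0 to 0 members, in that order. The upper ends are those without HFD + IgG1 replicate 6. Without HFD + PBS replicate 6 the counts were 4 against normal diet for HFD + IgG1 and 14 for HFD + PBS. The cause was not tested.

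Over single members, 526 values kept their sign and side of the threshold, 19 became called and 15 turned sign. In HFD + IgG1 against normal diet, Marco ran from -1.73 to 0.53, Csf1r from -0.95 to 0.087 and Cd163 from -0.52 to 0.66 with 1 library left out. Without the 3 discrepant libraries Vsig4 was at 0.078, Marco at 1.04, Csf1r at 0.15 and Cd68 at 0.021 there, and limma-voom put Cd163 at -0.24. No scaling alternative (RLE or upper-quartile factors, DESeq2) turned a member's sign or moved the median of all genes by over 0.1.

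The replicate numbers gave no sign of pairing the livers, as deviations of same-numbered libraries correlated at -0.49 to 0.01. With 3 libraries per group, these values cannot show that the livers were unpaired. With a replicate block edgeR called 0 genes, and the members' medians were -0.68, -0.41 and 0.32 in the order above. Under the block Cd163 was at 0.58 in HFD + IgG1 against HFD + PBS, Csf1r at 0.030 in HFD + IgG1 against normal diet and Cd5l at -0.067 in HFD + PBS against normal diet.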

Other observations

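The genes whose log2 CPM over the 9 libraries was most like that of Clec4f, by Pearson's r among 13222 genes of at least 1 CPM on average, were Themis2 (r = 0.98), Tfpi (0.98), Fyb (0.98), Cd300a (0.97) and Rab39 (0.97), apart from members. Themis2, Fyb and Cd300a encode proteins of signalling in blood-derived cells, and Tfpi encodes an inhibitor of coagulation. Among the members, Adgre1 ranked 4, Cd5l 21, Vsig4 49, Cd68 61 and Timd4 99, whereas Csf1r ranked 219, Marco 322, Mrc1 722 and Cd163 2902. The 9 points share their libraries, depth and the 2 low antibody libraries, so r is a description only.

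Of 10 T and NK cell genes, 8 were negative in HFD + IgG1 against HFD + PBS (median log2 fold change -1.10) and 8 positive in HFD + PBS against normal diet (median 0.75). Of 7 B cell genes, 4 were negative in HFD + IgG1 against HFD + PBS (median -0.59) and 7 in HFD + IgG1 against normal diet (median -0.63). Leaving out the 3 discrepant libraries moved these medians. For T and NK cell genes they became -1.62 in HFD + IgG1 against HFD + PBS and 1.54 in HFD + PBS against normal diet. For B cell genes they became -0.64 in HFD + IgG1 against HFD + PBS and -1.32 in HFD + IgG1 against normal diet. Of 7 tested dendritic cell genes, 5 were negative in HFD + IgG1 against HFD + PBS (median -0.23). In HFD + PBS against normal diet 4 of the 7 were negative (median -0.0034). Clec10a, a lectin that macrophages also make, had low means of 0.74, 1.83 and 0.47 CPM in HFD + IgG1, HFD + PBS and normal diet livers. It stood at -1.30 (SE 0.42) in HFD + IgG1 against HFD + PBS and at 1.95 (SE 0.44) in HFD + PBS against normal diet. Siglech, at 0.31 CPM in HFD + PBS and 0.94 CPM in normal diet livers, stood at -1.61 (SE 0.69). Of 6 cholangiocyte genes, 5 were negative in HFD + IgG1 against HFD + PBS (median -0.94) and 6 positive in HFD + PBS against normal diet (median 1.05). Stellate cell genes, 8 in all, had medians of -0.31 and 0.20 in those comparisons. None of these passed edgeR's adjusted threshold with all 9 libraries.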
